A study of Mus musculus with 9 samples.

Results

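Transcripts of 31 genes known as markers of microglia and macrophages were followed in sorted GFP-positive forebrain cells of mouse embryos. The genes were taken as a named list, matched by symbol to the Ensembl identifiers of the count tables, and all 31 were found among the 53379 genes counted. In 3 libraries each, the cells had received pCAGGS-GemC1 or pCAAGS-Mcidas, or the H2B-GFP plasmid without either factor (GFP group). Per the labels, plasmids went into C57Bl6DBa2 embryos in utero at E14.5, GFP-positive cells were sorted 2 days later at E16.5, and all samples are described as neural progenitor cells. The labels do not say whether every GemC1 and Mcidas embryo also received H2B-GFP, nor whether replicates came from separate embryos or litters, so p-values reflect only how far these samples scatter. The series asks how GemC1 starts the multiciliated cell fate.

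Microglia are the resident macrophages of the brain parenchyma. They descend from erythro-myeloid progenitors of the yolk sac and enter the brain early in gestation, so they do not arise from the progenitors along the ventricle that in utero electroporation reaches. Their survival depends on the receptor Csf1r and their identity on the myeloid transcription factors PU.1 (Spi1), Irf8 and Runx1. In the embryonic cortex they move among progenitors, take up dying cells and sense nucleotides, complement and the chemokine fractalkine through the receptors on the list.

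Sequencing depth ran from 22914704 to 41163917 counts per library, so that 3 counts, the floor used here, stood for 0.0729 to 0.131 CPM (counts scaled to a common library size). Such a floor covers counting error only, because the libraries were amplified and carry no molecular identifiers. Gmnc, the gene of GemC1, had between 6591 and 9651 counts in the GemC1 libraries, at most 9 in the Mcidas libraries and 0 in the GFP libraries, and Mcidas was highest in the Mcidas libraries. Against the label of neural progenitor cells, 15 of 15 radial glia genes passed the low-count filter, with sums of 1735 to 2714 CPM. But so did 15 of 15 genes of the neuronal list, with sums of 5326 to 7463 CPM. That list includes Eomes, a gene of intermediate progenitors, and sums over different genes do not give shares of cells. With either factor, 12 of 14 tested motile cilium genes rose over GFP (85.7%, against 3.86% of all genes with GemC1 and 4.03% with Mcidas). A year code in the file names sets the Mcidas libraries apart from the rest, and if it stands for a batch, batch and Mcidas cannot be told apart.

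The 31 markers were rare transcripts in all groups. Summed over the list they reached 174.6, 116.1 and 145.8 CPM in the GemC1 libraries, 84.3, 121.8 and 111.4 CPM in the Mcidas libraries, and 84.3, 70.2 and 68.2 CPM in the GFP libraries. Every GemC1 library lay above every GFP library, and the lowest Mcidas library equalled the highest GFP library. Between 50.7% and 85.8% of the markers' counts in a library came from Coro1a and Csf1r. Without this pair, chosen after their values were seen, the sum was 85.1, 54.9 and 71.9 CPM in GemC1, 24.9, 53.0 and 43.3 CPM in Mcidas, and 23.7, 21.7 and 9.7 CPM in GFP. The ratio of means was then 3.85 for GemC1 over GFP, 2.2 for Mcidas over GFP and 1.75 for GemC1 over Mcidas, against 1.96, 1.43 and 1.38 for the full list. The sums were not tested. In bulk RNA, more cells of a type and more RNA per cell cannot be told apart.

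**Figure D1:**
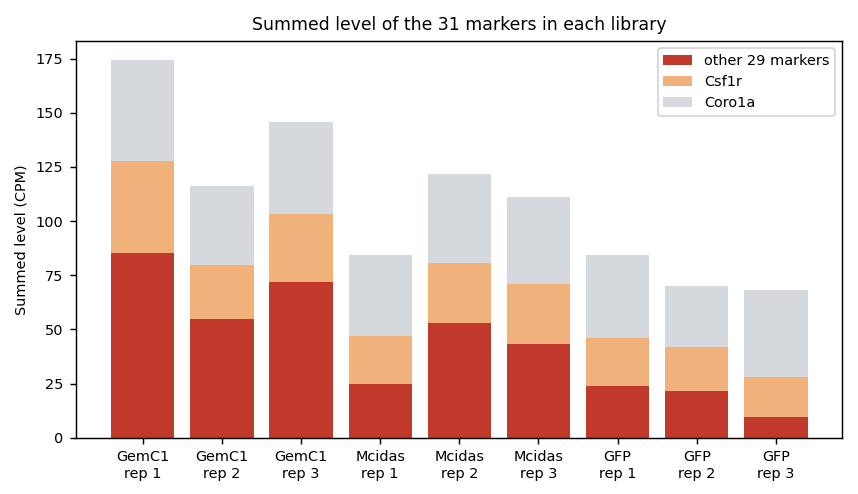
Summed level of the markers in each of the 9 libraries, in CPM, stacked into Coro1a (grey), Csf1r (orange) and the other 29 markers (red). The red part spans 54.9 to 85.1 CPM in the GemC1 libraries, 24.9 to 53.0 CPM in the Mcidas libraries and 9.7 to 23.7 CPM in the GFP libraries, while the Coro1a part spans 28.4 to 46.8 CPM over all 9.

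In GemC1 against GFP, 13 of the 30 markers tested rose and 0 fell (edgeR quasi-likelihood test, adjusted p under 0.05, adjusted over all 19572 genes tested). Those that rose were C1qb, P2ry12, Itgam, Lyz2, Irf8, Cx3cr1, Aif1, Fcer1g, Laptm5, Tyrobp, C1qc, Csf1r and Ctss. Of all genes tested, 3.86% were called higher and 1.32% lower. At an unadjusted p under 0.05, 17 markers were higher and 0 lower, with 10.4% of all genes higher by that rule. The median log2 fold change of the tested markers was 2.19, and that of all genes was 0.00. DESeq2 called 15 higher, where it called 5.5% of all genes higher and 3.1% lower. The count was 12 without a low-count filter (2.79% of all genes higher, 1.67% lower) and 13 with a replicate block (3.18% higher, 0.751% lower). In 19 of the 30 every GemC1 library exceeded every GFP library, against 13.2% of all genes; the reverse held for 0 of the 30, against 11.7%. Mrc1 did not pass the low-count filter. Filtering on GemC1 and GFP alone left 28 of the 31 markers, with Itgb2 and Runx1 also below the limit.

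Single libraries weighed on this count. It was 7 without GemC1 replicate 1, 7 without GFP replicate 2 and 7 without GFP replicate 3, the last with 29 of 30 fold changes above 0 and a median of 1.84. Called in each of the 16 alternative analyses were 6 markers: Cx3cr1, P2ry12, C1qb, Itgam, Irf8 and Lyz2.

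**Figure D2:**
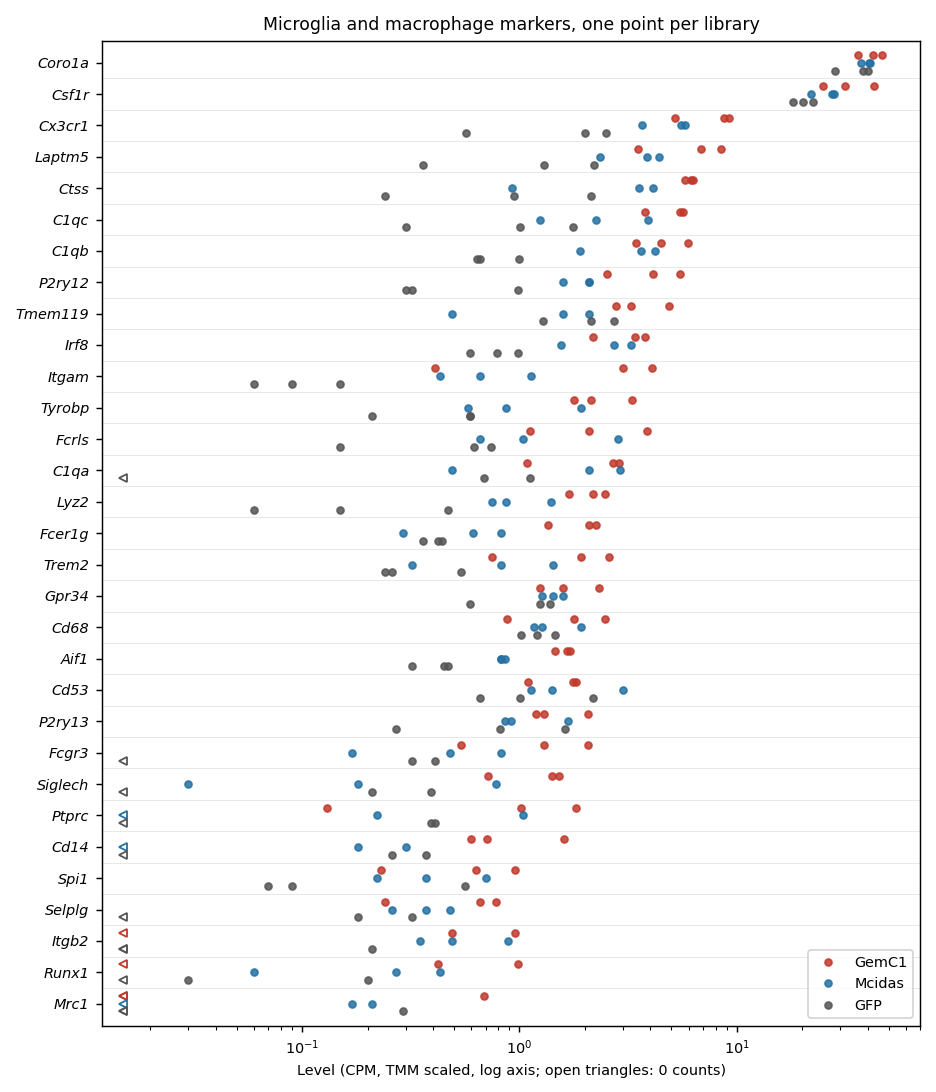
Level of each of the 31 markers in CPM (log axis), with one point per library, ordered by the GemC1 mean. Open triangles at the left edge stand for 0 counts; most markers lie between 0.1 and 10 CPM, and only Coro1a and Csf1r lie above.

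**Figure D3:**
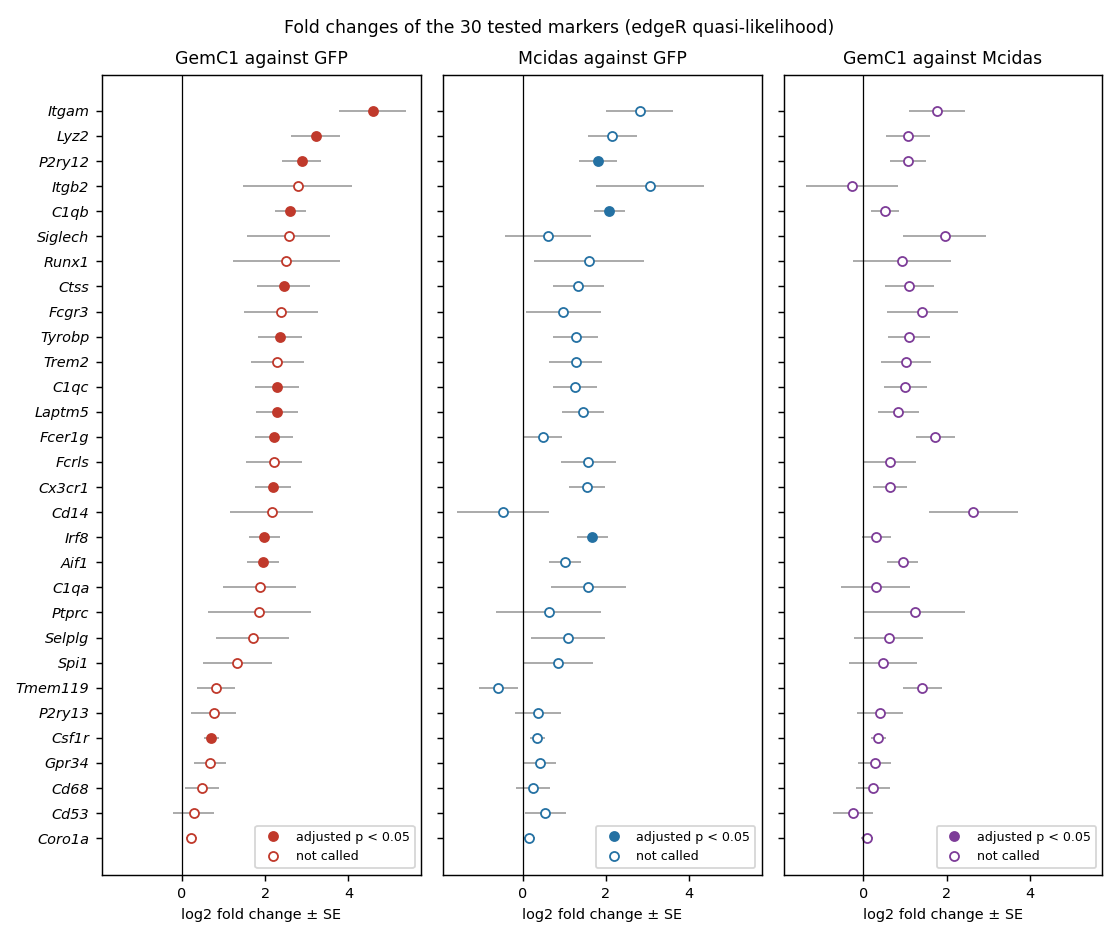
Log2 fold change ± SE of the 30 tested markers for GemC1 over GFP (left), Mcidas over GFP (middle) and GemC1 over Mcidas (right), with filled points where the adjusted p was under 0.05. The left panel has 13 filled points, the middle panel 3 and the right panel 0.

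Promoter windows of 5 markers are shown as examples: Itgam, Ctss, C1qc and P2ry12, which rose with GemC1, and Coro1a, which was not called. The choice does not stand for the list, because no uncalled marker with a match to the marked letters is among them. Each window covers 250 bases before to 50 bases after a RefSeq transcription start (GRCm38.p6), read 5′ to 3′ on the gene's strand. Capitals mark GAGGAA or its reverse complement, a form of the sites of PU.1, an ETS factor, that contains the shorter ETS core GGAA. GGAA with other letters before it is not marked, and it stands in the P2ry12 and Coro1a windows too. The windows are chr7:128062390-128062689 (plus strand) for Itgam, chr3:95526536-95526835 (plus) for Ctss, chr4:136892865-136893164 (minus) for C1qc, chr3:59262936-59263235 (minus) for P2ry12 and chr7:126704767-126705066 (minus) for Coro1a, the one of its 2 windows further upstream.
Itgam: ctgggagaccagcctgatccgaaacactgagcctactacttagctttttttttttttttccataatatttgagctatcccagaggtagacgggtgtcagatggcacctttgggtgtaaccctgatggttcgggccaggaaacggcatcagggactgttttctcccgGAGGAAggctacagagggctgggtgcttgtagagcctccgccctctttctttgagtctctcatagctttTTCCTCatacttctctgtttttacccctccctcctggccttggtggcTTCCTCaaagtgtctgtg
Ctss: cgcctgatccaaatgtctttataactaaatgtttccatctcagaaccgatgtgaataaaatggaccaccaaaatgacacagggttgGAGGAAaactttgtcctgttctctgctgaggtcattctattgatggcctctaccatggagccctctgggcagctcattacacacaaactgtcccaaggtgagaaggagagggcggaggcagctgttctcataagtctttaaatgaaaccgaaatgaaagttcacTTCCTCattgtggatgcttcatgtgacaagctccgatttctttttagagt
C1qc: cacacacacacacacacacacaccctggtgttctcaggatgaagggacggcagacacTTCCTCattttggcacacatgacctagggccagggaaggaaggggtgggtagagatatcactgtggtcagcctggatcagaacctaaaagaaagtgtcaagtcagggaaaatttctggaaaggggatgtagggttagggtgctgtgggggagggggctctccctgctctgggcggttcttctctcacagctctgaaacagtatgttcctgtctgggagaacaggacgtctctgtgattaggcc
P2ry12: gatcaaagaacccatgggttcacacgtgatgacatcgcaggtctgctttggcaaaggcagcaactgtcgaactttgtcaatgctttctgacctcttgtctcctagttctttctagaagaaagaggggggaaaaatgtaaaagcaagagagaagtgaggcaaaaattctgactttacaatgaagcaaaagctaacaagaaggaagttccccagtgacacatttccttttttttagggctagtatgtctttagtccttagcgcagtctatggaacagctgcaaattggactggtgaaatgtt
Coro1a: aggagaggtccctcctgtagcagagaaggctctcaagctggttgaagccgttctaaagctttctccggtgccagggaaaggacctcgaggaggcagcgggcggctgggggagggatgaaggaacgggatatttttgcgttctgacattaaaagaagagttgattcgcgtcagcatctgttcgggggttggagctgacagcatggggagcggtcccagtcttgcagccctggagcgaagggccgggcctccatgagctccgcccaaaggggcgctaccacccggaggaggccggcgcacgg

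RefSeq windows were at hand for 22 of the 31 markers, 27 windows in all. GAGGAA stood on either strand in 17 of these 27 windows (63.0%), belonging to 16 markers, against 28.3% of all 32851 windows. The longer run GAGGAAGT, which contains GAGGAA, was present in 3 windows (C1qc, Cd53 and Ctss), or 11.1% against 3.2%. TGTGGT, the core letters of RUNX sites, was present in 9 windows, or 33.3% against 16.8%. A composite of ETS and IRF letters was present in the Cd68 window only, or 3.7% against 2.72%. Letters of this kind describe the windows and do not show binding. Itgam had 3 matches to GAGGAA and P2ry12 had 0, and both rose. Of the other markers called with GemC1, Aif1, C1qb, C1qc, Ctss and Laptm5 had GAGGAA. Cx3cr1, Fcer1g, Irf8 and Lyz2, also called, had windows without it. Cd53 and Cd68, with 2 matches each, were not called. Nor were Fcgr3, Fcrls, P2ry13, Ptprc, Runx1, Siglech and Trem2, which had GAGGAA, and Mrc1, which had it too, was not tested. GAGGAA thus did not set the called markers apart. TATAAA was present in 5 windows, or 18.5% against 13.6%.

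Surface receptors formed the largest group, with 15 markers, of which 14 were tested and 4 rose with GemC1. P2ry12, the ADP receptor that steers microglial processes, was at 5.46, 2.54 and 4.11 CPM in GemC1, 1.58, 2.10 and 2.08 CPM in Mcidas, and 0.32, 0.98 and 0.30 CPM in GFP. The 3 groups did not overlap, with GemC1 highest and GFP lowest. Its log2 fold change in GemC1 against GFP was 2.88 ± 0.47 (SE, adjusted p = 0.00277). Cx3cr1, the fractalkine receptor, was at 9.20, 5.18 and 8.78 CPM in GemC1, 3.66, 5.75 and 5.54 CPM in Mcidas, and 2.0, 2.5 and 0.57 CPM in GFP. Both factor groups stood above the GFP libraries and overlapped each other. The GemC1 change was 2.18 ± 0.43 (adjusted p = 0.0103).

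Itgam, the CD11b chain of complement receptor 3, had the largest fold change of the list, 4.58 ± 0.81 on the log2 scale (adjusted p = 0.00525). It was counted 116, 12 and 91 times in GemC1, 23, 14 and 26 times in Mcidas, and 3, 6 and 2 times in GFP. GemC1 replicate 2 had fewer counts than any Mcidas library but more than any GFP library, and the GFP libraries were near the floor of 3 counts. Itgam shares 3450 exon bases with Gm49368 on the same strand in GENCODE M21, and Gm49368 had 109, 10 and 78 counts in GemC1, 22, 18 and 24 in Mcidas, and 0, 2 and 2 in GFP. How the authors' counting divided reads between these overlapping genes is not given in the sources used here, so the level of Itgam is uncertain. Itgb2, the CD18 chain that pairs with Itgam, had 27, 0 and 15 counts in GemC1, 31, 16 and 8 in Mcidas, and 7, 0 and 0 in GFP. Its change of 2.78 ± 1.31 was not called (adjusted p = 0.266).

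Csf1r, the receptor for CSF1 and IL-34, behaved unlike the other receptors in level. It was at 42.7, 25 and 31.5 CPM in GemC1, 22.1, 27.9 and 27.5 CPM in Mcidas, and 22.3, 20.2 and 18.2 CPM in GFP. GemC1 lay above GFP without overlap, by 0.71 ± 0.18 (adjusted p = 0.0409), a call lost in 9 of 16 alternatives. In GFP replicate 3, Csf1r had 606 counts while Cx3cr1 had 19, C1qa 0 and Laptm5 12. The ratio of Csf1r to Cx3cr1 counts was 4.64, 4.82 and 3.59 in GemC1, 6.03, 4.85 and 4.97 in Mcidas, and 11.2, 8.05 and 31.9 in GFP. Csf1r shares 873 exon bases with Hmgxb3 on the opposite strand, which had 2279 to 3779 counts in every library. Neither library kit marks strand, so reads of the 2 genes cannot be told apart there, and the part of Hmgxb3 in the Csf1r level was not tested. Hmgxb3 itself had a log2 fold change of 0.08 in GemC1 against GFP (adjusted p = 0.643).

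Other receptors were less regular. Tmem119, a membrane protein used as a microglial marker, was at 4.87, 2.78 and 3.26 CPM in GemC1, 0.49, 1.58 and 2.08 CPM in Mcidas, and 2.73, 2.14 and 1.29 CPM in GFP. GemC1 stood above both other groups by a narrow margin over GFP, and its change of 0.82 ± 0.45 was not called (adjusted p = 0.344). P2ry13, a second ADP receptor, had 0.76 ± 0.55 and overlapping groups, at 1.30, 1.19 and 2.07 CPM in GemC1, 0.86, 1.67 and 0.91 CPM in Mcidas, and 1.62, 0.81 and 0.27 CPM in GFP. P2ry13 lies 5.4 kb from P2ry12 on chromosome 3 and did not show the separation of P2ry12.

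Fcrls, an Fc receptor-like protein of microglia, was at 2.08, 3.86 and 1.12 CPM in GemC1 and at 0.62, 0.74 and 0.15 CPM in GFP, without overlap. Its change of 2.21 ± 0.67 was not called (adjusted p = 0.0802), though DESeq2 and the fit with a replicate block called it. Siglech, a sialic acid-binding lectin, had 40, 45 and 22 counts in GemC1, 1, 6 and 18 in Mcidas, and 7, 16 and 0 in GFP, a change of 2.56 ± 1.0 over GFP (adjusted p = 0.179). Cd14, the co-receptor for lipopolysaccharide, had 17, 21 and 49 counts in GemC1, 0, 6 and 7 in Mcidas, and 9, 15 and 0 in GFP (2.16 ± 1.0, adjusted p = 0.258). GemC1 stood above GFP without overlap in Fcrls, Siglech and Cd14, and above Mcidas without overlap in Cd14 but not in Fcrls or Siglech.

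Ptprc (CD45, the phosphatase of all nucleated blood cells) had 52, 30 and 4 counts in GemC1, 0, 34 and 5 in Mcidas, and 14, 16 and 0 in GFP. The libraries of each group spread widely and the groups overlapped (1.86 ± 1.24, adjusted p = 0.451). Gpr34, a receptor for lysophosphatidylserine, had 0.68 ± 0.39, the tetraspanin Cd53 0.28 ± 0.49, and Selplg, the ligand of P-selectin, 1.70 ± 0.87, none of them called. Mrc1, the mannose receptor of border-associated macrophages, was counted in 4 of 9 libraries only, with 0, 0 and 21 counts in GemC1, 0, 7 and 4 in Mcidas, and 10, 0 and 0 in GFP.

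Complement C1q is the recognition part of the classical complement pathway and is assembled from 3 chains. Their genes stand side by side on chromosome 4, within 18.7 kb from 136880129 to 136898803 of GRCm38. C1qb was at 5.99, 3.45 and 4.47 CPM in GemC1, 1.90, 4.20 and 3.64 CPM in Mcidas, and 1.0, 0.64 and 0.66 CPM in GFP. Both factor groups lay wholly above GFP, and C1qb had the smallest adjusted p of the list in GemC1, at 0.00101, with a change of 2.60 ± 0.37. C1qc was at 5.68, 3.79 and 5.46 CPM in GemC1, 1.24, 3.90 and 2.25 CPM in Mcidas, and 1.76, 1.01 and 0.30 CPM in GFP (2.28 ± 0.53, adjusted p = 0.0277). C1qa had 81, 32 and 82 counts in GemC1, 17, 69 and 67 in Mcidas, and 38, 28 and 0 in GFP, with 1.87 ± 0.88 (adjusted p = 0.272). In C1qa all 3 groups overlapped, GemC1 and GFP through GemC1 replicate 2 and GFP replicate 1. The call of C1qc was lost in 4 of 16 alternatives.

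Tyrobp (DAP12) and Fcer1g (the Fc receptor gamma chain) are the signalling adaptors to which receptors without a cytoplasmic signalling tail attach. Tyrobp was at 3.31, 2.13 and 1.78 CPM in GemC1, 0.58, 1.92 and 0.87 CPM in Mcidas, and 0.59, 0.59 and 0.21 CPM in GFP, a rise of 2.36 ± 0.53 (SE, adjusted p = 0.023). Fcer1g was at 2.26, 2.10 and 1.35 CPM in GemC1, 0.29, 0.82 and 0.61 CPM in Mcidas, and 0.44, 0.42 and 0.36 CPM in GFP, a rise of 2.21 ± 0.46 (adjusted p = 0.0152). These calls were lost in 4 (Tyrobp) and 3 (Fcer1g) of 16 alternatives. For Fcer1g the GemC1 libraries stood above all others and the Mcidas and GFP libraries overlapped. Their partner receptors were not called. Trem2, the lipid receptor that signals through Tyrobp, had 2.29 ± 0.63 (adjusted p = 0.0571) with no overlap between GemC1 and GFP, and it was called in 6 of 16 alternatives. Fcgr3, an activating IgG receptor that signals through Fcer1g, had 2.39 ± 0.89 (adjusted p = 0.155), also without overlap.

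Of the lysosomal and secreted proteins, 3 of 4 rose with GemC1. Lyz2 (lysozyme M) had 70, 50 and 66 counts in GemC1, 26, 46 and 20 in Mcidas, and 16, 6 and 2 in GFP. The groups formed a series without overlap, and the GemC1 change was 3.21 ± 0.59 (adjusted p = 0.00692). Laptm5, a lysosomal membrane protein of blood cells, was at 8.50, 3.52 and 6.84 CPM in GemC1, 2.36, 3.87 and 4.37 CPM in Mcidas, and 2.20, 1.30 and 0.36 CPM in GFP (2.28 ± 0.51, adjusted p = 0.0227), a call lost in 5 of 16 alternatives.

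Ctss, a lysosomal protease of antigen-presenting cells, was the steadiest called marker within GemC1. It was at 6.31, 6.16 and 5.79 CPM there, at 0.92, 4.11 and 3.55 CPM in Mcidas, and at 0.94, 2.14 and 0.24 CPM in GFP. GemC1 exceeded every other library, by 2.44 ± 0.63 over GFP (adjusted p = 0.0448), a call lost in 8 of 16 alternatives. Cd68, a lysosomal glycoprotein also found outside the myeloid lineage, had 0.48 ± 0.40 (adjusted p = 0.568) and overlapping groups.

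Of the pair of actin-binding proteins 1 rose. Aif1 (IBA1), the antigen by which microglia are usually stained, was at 1.45, 1.66 and 1.71 CPM in GemC1, 0.86, 0.82 and 0.82 CPM in Mcidas, and 0.47, 0.32 and 0.45 CPM in GFP. Its 3 groups were tight and fully apart, with a GemC1 change of 1.95 ± 0.38 (adjusted p = 0.0103). Coro1a, an actin regulator of leukocytes that neurons also express, was at 46.8, 36.2 and 42.3 CPM in GemC1, 37.3, 40.9 and 40.5 CPM in Mcidas, and 38.2, 28.4 and 40.3 CPM in GFP. Its groups overlapped and its change was 0.23 ± 0.14 (adjusted p = 0.397). In GFP replicate 3, where 8 of the 31 markers had no count, Coro1a was as high as in the Mcidas libraries.

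Among the transcription factors Irf8, required for microglial development, rose. It was at 3.77, 2.17 and 3.39 CPM in GemC1, 1.56, 3.26 and 2.73 CPM in Mcidas, and 0.59, 0.79 and 0.99 CPM in GFP. All 6 libraries that received a factor lay above the GFP libraries, and the GemC1 change was 1.98 ± 0.37 (adjusted p = 0.00824). Spi1 had 18, 28 and 7 counts in GemC1, 13, 23 and 5 in Mcidas, and 19, 3 and 3 in GFP (1.33 ± 0.83, adjusted p = 0.416). Runx1 had 12, 0 and 30 counts in GemC1, 2, 9 and 10 in Mcidas, and 0, 8 and 1 in GFP (2.51 ± 1.28, adjusted p = 0.305). At such counts neither gene separated the groups.

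Per kilobase of exon, a rough scale for comparing genes, the order of the markers' means differed between groups. Lengths join all annotated exons of a gene, up to 18313 bp for Ptprc, so ranks depend on the annotation. The order was not tested. In GemC1, Coro1a stood at 15 CPM per kb, followed by Csf1r at 5.72, Ctss at 4.48, C1qb at 4.26, Tyrobp at 3.61, C1qc at 2.58, Fcer1g at 2.18 and C1qa at 2.13. In Mcidas, Coro1a was at 14.2 CPM per kb, Csf1r at 4.47, C1qb at 2.98 and Ctss at 2.11. In GFP, Coro1a was at 12.8 CPM per kb and Csf1r at 3.5, while Cd68 at 0.97, Tmem119 at 0.89 and Ctss at 0.81 came next. Coro1a and Csf1r thus led in each group, and no other marker reached 1 CPM per kb in GFP.

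Mcidas against GFP showed a smaller set of calls. Of the 30 markers tested 3 rose and 0 fell, where 4.03% of all genes were called higher and 0.327% lower; 12 were higher and 0 lower at an unadjusted p under 0.05, against 8.65% of all genes higher. C1qb had 2.08 ± 0.37 (SE, adjusted p = 0.00422), Irf8 1.67 ± 0.37 (adjusted p = 0.0208) and P2ry12 1.81 ± 0.46 (adjusted p = 0.0459). The median over the tested markers was 1.17, and over all genes -0.03. In 9 of 30 every Mcidas library exceeded every GFP library, against 10.7% of all genes, and the reverse held for 0, against 8.87%. The highest estimate was that of Itgb2 at 3.06 ± 1.30 (adjusted p = 0.339), and the negative ones were Tmem119 at -0.59 ± 0.47 and Cd14 at -0.47 ± 1.10, none called. Filtering on Mcidas and GFP alone left 27 of the 31 markers, with Siglech, Runx1 and Cd14 below the limit beside Mrc1.

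The Mcidas calls rested on few libraries. Without Mcidas replicate 2 or without Mcidas replicate 3, C1qb was the 1 marker called. Without GFP replicate 1 there were 2, C1qb and Lyz2, without GFP replicate 2 they were C1qb and P2ry12, and without GFP replicate 3 they were C1qb and Irf8. Without GemC1 replicate 1 or 3 they were C1qb and Irf8, the spread being estimated over all groups. With a replicate block P2ry12 was no longer called, leaving 2 (3.4% of all genes higher, 0.235% lower). C1qb was called in each of the 16 alternatives. DESeq2 called 6 markers, adding Cx3cr1, Itgam and Lyz2 (4.7% of all genes higher, 0.496% lower). Without a low-count filter 5 were called, adding Itgam and Lyz2 (2.79% higher, 0.369% lower). The GemC1 and Mcidas fold changes share the same 3 GFP libraries, so their likeness is not an independent observation.

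GemC1 against Mcidas compared both factors without the GFP libraries in the contrast. No marker was called by edgeR (0 of 30, with 7 higher and 0 lower at an unadjusted p under 0.05) or by DESeq2 (0), and none without a low-count filter or with a replicate block. Few genes of any kind were called by edgeR, 0.0153% higher and 0.0358% lower, while DESeq2 called 1.27% higher and 2.0% lower; without a low-count filter these shares were 0.198% and 0.387%, and with the block 0.0153% and 0.0153%. The markers' median log2 fold change was 0.88 and 28 of 30 were positive, against a median of 0.00 and 49.4% positive among all genes. Every GemC1 library exceeded every Mcidas library for 7 of the 30, namely P2ry12, Ctss, Aif1, Tmem119, Fcer1g, Cd14 and Lyz2, against 9.07% of all genes, and the reverse held for 0, against 7.64%. At an unadjusted p under 0.05, 6.37% of all genes were higher. Fcer1g had 1.73 ± 0.46 (SE, adjusted p = 0.176), Tmem119 1.41 ± 0.47 (adjusted p = 0.244) and Aif1 0.94 ± 0.37 (adjusted p = 0.306). The median without Mcidas replicate 1 was 0.53. That Cx3cr1, Lyz2 and other markers were called over GFP with one factor and not with the other is therefore not shown to be a difference between the factors.

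Within each group many markers had their highest or lowest level in the same library. The like shares over all genes were not computed, so this is not shown to be particular to the markers. Of the 30 tested, 21 were highest in GemC1 replicate 1 within the GemC1 group and 19 lowest in replicate 2. In the Mcidas group, 20 were highest in replicate 2 and 24 lowest in replicate 1. In the GFP group 22 were lowest in replicate 3, while replicates 1 and 2 were highest for 15 and 12. The coefficient of variation within a group had a median of 34.4% over the tested markers in GemC1, 48.8% in Mcidas and 66.8% in GFP. GFP replicate 3 also had the highest summed level of 15 neuronal genes, 7463 CPM, against 6508 and 6519 CPM in the other GFP libraries, and Mcidas replicate 1 had the highest of its group, 6485 CPM against 6022 and 5684 CPM. The GemC1 group went the other way, since replicate 1 had the highest neuronal sum, 5757 CPM, and replicate 2 the lowest, 5326 CPM. The part of these differences in the markers' levels was not tested.

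A second list of 63 microglia and macrophage genes outside the 31 had a smaller share of calls. Of 53 tested, 6 rose with GemC1 and 0 fell (11.3%, against 3.86% of all genes), with a median of 1.38; 22 were higher and 0 lower at an unadjusted p under 0.05. DESeq2 called 12 of the list higher. The count with GemC1 was 3 without GemC1 replicate 1, GemC1 replicate 2 or GFP replicate 2, 2 without GFP replicate 3 and 10 without Mcidas replicate 1. Those that rose included Hpgds, Cd84, Blnk and Bin2, the 4 with the smallest adjusted p. Hpgds, the haematopoietic prostaglandin D synthase, was at 5.96, 8.64 and 9.83 CPM in GemC1, 6.74, 5.91 and 8.18 CPM in Mcidas, and 1.59, 2.06 and 2.16 CPM in GFP, 2.07 ± 0.25 over GFP (SE, adjusted p = 0.000279). It was also the 1 gene of the list that rose with Mcidas (1.84 ± 0.25, edgeR adjusted p = 0.000538), or 1.89% against 4.03% of all genes. The count with Mcidas was 3 without Mcidas replicate 1 or GFP replicate 2. Cd84, an adhesion receptor of blood cells, had 21, 21 and 36 counts in GemC1, 16, 10 and 4 in Mcidas, and 2, 2 and 0 in GFP, 4.44 ± 0.80 over GFP (adjusted p = 0.00609).

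Many genes of other macrophages and blood cells had few counts. Of 15 genes of border-associated macrophages 3 could be tested, and 0 were called in either direction by edgeR or by DESeq2. At an unadjusted p under 0.05, 1 was higher in GemC1 against GFP and 1 in Mcidas against GFP, Folr2 in both. Folr2 had 8, 15 and 9 counts in GemC1, 25, 9 and 10 in Mcidas, and 4, 1 and 3 in GFP (edgeR adjusted p = 0.125 and 0.088). The list summed to 4.74 to 6.97 CPM in GemC1, 4.59 to 6.67 CPM in Mcidas and 4.52 to 5.22 CPM in GFP. Most of this came from Dab2 (2.94 CPM in GemC1 and 2.07 CPM in GFP) and F13a1 (1.63 and 2.26 CPM), so the sum says little of the other genes. Cbr2, Cd209f, Ccl8, Clec12a and Ccl24 had at most 3 counts in every library. Of 20 lymphocyte and mast cell genes 13 had at most 3 counts in every library, the T cell genes Cd3e, Cd3d and Cd3g and the B cell gene Ms4a1 among them. Likewise 8 of 19 monocyte and neutrophil genes, including Ly6c2, Ly6g, Mpo and Elane, had at most 3 counts throughout. The sums of these lists, 57.4 to 108 CPM for lymphocytes and mast cells and 54.5 to 106.7 CPM for monocytes and neutrophils over the 9 libraries, included abundant genes that are not specific to blood cells. Kit had 1579 to 3643 counts, Fn1 917 to 2720 and Itga4 405 to 812, and none of these 3 was called in GemC1 against GFP.

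Of 15 tested genes of the phagocytic and lipid-associated state 4 rose with GemC1 (26.7%, against 3.86% of all genes): Apoe, the main lipid carrier of the brain, at 59.9 ± 2.10 CPM in GemC1 and 30 ± 7.27 CPM in GFP (SD, n = 3 each, edgeR adjusted p = 0.0116), Lgals3 (2.29 ± 0.53, SE), Cd63 (0.51 ± 0.14) and Ctsd (0.39 ± 0.08). Apoe, Cd63 and Ctsd are also made by progenitors and astroglia. Of 9 tested inflammatory genes 1 rose with GemC1 (11.1%, against 3.86% of all genes), the chemokine Ccl3. Its counts were 79, 30 and 65 in GemC1, 10, 35 and 21 in Mcidas, and 21, 6 and 12 in GFP (2.40 ± 0.62 over GFP, adjusted p = 0.0453). At an unadjusted p under 0.05, 4 of the list were higher and 1 lower. The lower gene was Arg1, at 0.16 ± 0.08 CPM in GemC1 and 0.64 ± 0.16 CPM in GFP (SD), without overlap. Among 19 general lysosome genes 0 were called with GemC1 by edgeR (3 higher at an unadjusted p under 0.05) and 1 higher by DESeq2, with a median of 0.14. In the complement cascade beyond C1q, 1 of 11 rose with GemC1 (9.09%, against 3.86% of all genes). This was the complement inhibitor Cd55 (2.90 ± 0.66, edgeR adjusted p = 0.0236).

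Signals that act on microglia were measured too. Csf1, a ligand of Csf1r, was at 24.8 ± 6.38 CPM in GemC1 and 31 ± 4.02 CPM in GFP (SD, n = 3 each, edgeR adjusted p = 0.38), and the other ligand, Il34, had at most 3 counts in every library. Cx3cl1, the ligand of Cx3cr1, was at 5.15 ± 2.94 CPM in GemC1 and 1.47 ± 0.90 CPM in GFP (edgeR adjusted p = 0.18). In Mcidas, Cx3cl1 was at 10.2 ± 6.73 CPM, with every library above GFP (edgeR adjusted p = 0.0529 against GFP). Csf1 was at 19.7 ± 3.14 CPM in Mcidas, with every library below GFP (edgeR adjusted p = 0.086). Of 17 such genes, edgeR called 1 higher with either factor (5.88%, against 3.86% of all genes with GemC1 and 4.03% with Mcidas). This was Sirpa, the receptor for the signal CD47, at 45.9 ± 1.47 CPM in GemC1, 42.8 ± 2.94 CPM in Mcidas and 23.0 ± 3.32 CPM in GFP (edgeR adjusted p = 0.000247 and 0.000443). With Mcidas, DESeq2 called 3 of the list higher (Sirpa, Cx3cl1 and Gas6) and 1 lower (Csf1), against 4.7% and 0.496% of all genes. Sirpa is expressed by neurons as well as by myeloid cells.

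Markers of other non-neural cells were set beside the microglial ones. Of 10 tested endothelial genes 1 rose with either factor (10.0%, against 3.86% of all genes with GemC1 and 4.03% with Mcidas). This was Pltp, a lipid transfer protein, at 21.3 ± 1.81 CPM in GemC1, 24.1 ± 11.1 CPM in Mcidas and 3.0 ± 0.2 CPM in GFP (SD, n = 3 each). The endothelial list summed to 68.7 to 88.3 CPM in GemC1, 61.2 to 85.4 CPM in Mcidas and 50.6 to 54.3 CPM in GFP. Pltp is part of this sum, so the sum does not show a rise of the other endothelial genes. The defining endothelial gene Pecam1 had 7, 5 and 0 counts in GemC1, 11, 14 and 15 in Mcidas, and 7, 2 and 20 in GFP. Kdr, the main VEGF receptor of endothelium, had 0, 0 and 0 counts in GemC1, 6, 70 and 17 in Mcidas, and 16, 2 and 11 in GFP. Cldn5, a tight junction protein, had 0, 0 and 2 counts in GemC1, 0, 30 and 0 in Mcidas, and 0, 22 and 17 in GFP, and Flt1, another VEGF receptor, had 2, 9 and 0 counts in GemC1, 1, 26 and 8 in Mcidas, and 17, 13 and 18 in GFP. In GemC1 these 3 genes had lower mean levels than in GFP, the opposite of Pltp, and edgeR called none of them (adjusted p = 0.0923, 0.297 and 0.383 in GemC1 against GFP). DESeq2 called 2 endothelial genes higher with GemC1 (Pltp and Itm2a) and 1 lower (Kdr), against 5.5% and 3.1% of all genes. Kdr, Cldn5 and Flt1 were named after their values were seen and do not stand for the list. Of its 10 tested genes, 6 fold changes were positive and 4 negative in GemC1 against GFP, with a median of 0.17. Every GemC1 library exceeded every GFP library in 3 of them, and the reverse held in 2. Pericyte genes summed to 23.9 to 33.6 CPM in GemC1, 20.2 to 37.8 CPM in Mcidas and 22.3 to 30.9 CPM in GFP, and erythroid genes to 30.4 to 43.8, 15.5 to 52.0 and 32.1 to 44.3 CPM in the same order. No gene of either list was called by edgeR. At an unadjusted p under 0.05, 2 of 8 pericyte and 1 of 7 erythroid genes were lower in GemC1 against GFP. Of all 19572 genes, 3809 had such a p in this comparison, 2041 of them higher. DESeq2 called 1 pericyte gene lower and 0 erythroid genes, where it called 3.1% of all genes lower. Meningeal fibroblast genes summed to 74.7 to 90.6 CPM in GemC1, 58.8 to 80.2 CPM in Mcidas and 50.2 to 66.0 CPM in GFP. With GemC1, 1 of 6 tested rose (16.7%, against 3.86% of all genes), Fbln1 (0.67 ± 0.13). Of 15 radial glia genes 0 were called with GemC1 by edgeR (4 higher and 1 lower at an unadjusted p under 0.05). DESeq2 called 3 of them higher and 1 lower, against 5.5% and 3.1% of all genes. Of 15 neuronal genes 3 fell with GemC1 by edgeR, Myt1l and Dcx among them, where 1.32% of all genes fell. The neuronal sum was 5326 to 5757 CPM in GemC1, 5684 to 6485 CPM in Mcidas and 6508 to 7463 CPM in GFP, and the part of these other cell types in the markers' changes was not tested.

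**Figure D4:**
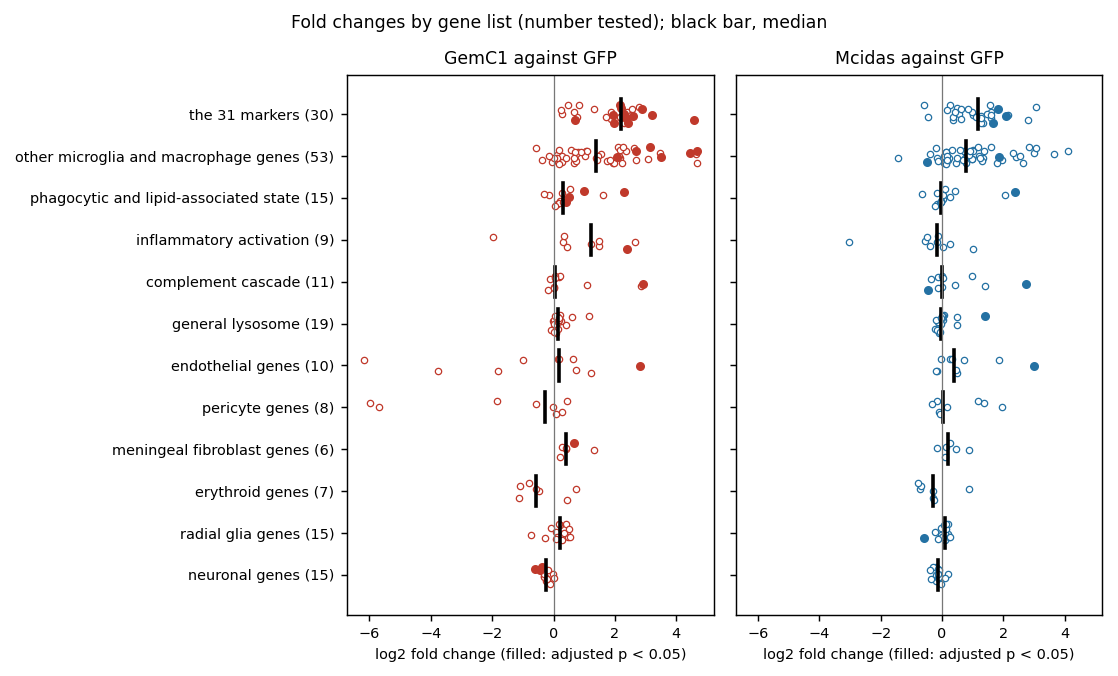
Log2 fold change of every tested gene in 12 lists for GemC1 over GFP (left) and Mcidas over GFP (right); filled points had an adjusted p under 0.05 and black bars are list medians. The 31 markers (30 tested) have medians of 2.19 and 1.17, while the medians of the pericyte and neuronal lists in GemC1 are -0.29 and -0.23.

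The markers lie on 14 chromosomes. Besides C1q and the P2ry12 and P2ry13 pair, neighbours on the list were Tmem119 and Selplg, 18.0 kb apart on chromosome 5, and Fcgr3 and Fcer1g, 164.6 kb apart on chromosome 1. In each of these pairs 1 gene or none was called with GemC1.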

How the data were processed

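RNA of sorted GFP-positive forebrain cells was measured in 9 libraries of 3 groups. Per the labels, 10 ng of total RNA was amplified with SMART-Seq v4 and 150 pg of cDNA entered Nextera XT libraries with 75 bp reads. The deposited values are raw counts per Ensembl gene, 1 table per library, per the file headers. Tools named in the submitters' processing notes, with no role or order, are DESeq2 1.8.1, HTSeq 0.5.3 and STAR 2.5.2b, beside the build mm10. No source used here gives the annotation release or strand setting. Symbols, positions and exon lengths came from GENCODE M21 (GRCm38), which matched 53274 of 53379 identifiers; the others held at most 0.0676% of a library.

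All genes were tested at once with edgeR 4.0.16 in R 4.3.3: filterByExpr (minimum count 10, minimum total 15), TMM factors (0.9601 to 1.035), a robust quasi-likelihood fit with group as the only term and 2-sided tests, with Benjamini-Hochberg adjustment over 19572 genes and a threshold of 0.05. SE was derived from the F statistic. The fit was tested on simulated counts with the same spread for every gene. That test does not bear on the markers, whose spread was uneven. CPM are TMM-scaled. Alternatives were DESeq2 1.42.0, its size factors in edgeR, no filter, a stricter filter (1 CPM in 3 libraries), a replicate block, fits of the compared groups only, removal of mitochondrial, globin and plasmid genes, and removal of each library. All 31 markers are described; of other lists, the called members, at most the 4 with the smallest adjusted p, are named, and other genes were named after their values were seen. The markers, the 16 other lists (330 entries, 4 unmatched) and the motifs were chosen with earlier results of these data known. Promoter windows are RefSeq's. Some genes of the other lists are not reported here.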

Additional observations from a re-analysis of the deposited data

How the results depend on the processing

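With a library left out, the markers called higher numbered 7 to 14 in GemC1 against GFP, 1 to 4 in Mcidas against GFP and 0 in GemC1 against Mcidas; without a library the genes of the second microglial list numbered 2 to 10 and 1 to 3. DESeq2 called 15 and 6 markers and 12, 4 and 1 genes of the second list in the 3 comparisons. Without a low-count filter 5 markers rose with Mcidas, and 10 and 4 genes of the second list rose with GemC1 and Mcidas; with the stricter filter 2 rose with GemC1. The replicate block and the fit of the compared groups gave 2 and 2 genes of that list with Mcidas. Same-numbered libraries did not deviate together (correlations from -0.07 to 0.05 over 9 pairs), so the numbers are not taken as pairs; with the replicate block 13 markers rose in GemC1 and 2 in Mcidas. Over all genes, 1159 rose with GemC1 by DESeq2, 472 without GFP replicate 2 and 443 without GFP replicate 3, against 756. The cause was not tested, except that a stricter filter tests fewer genes.

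Fold changes that crossed 0, none of them called, did so with a library left out. In GemC1 against GFP this was Cd53 (-0.02 to 0.90). In Mcidas against GFP these were Cd14 (-1.21 to 0.22), P2ry13 (-0.06 to 1.08), Cd53 (-0.01 to 1.16), Cd68 (-0.01 to 0.40), Ptprc (-1.45 to 1.24) and Siglech (-0.94 to 1.58). In GemC1 against Mcidas these were Coro1a (-0.01 to 0.17), Gpr34 (-0.01 to 0.45), Cd68 (-0.14 to 0.54), Itgb2 (-1.22 to 0.31), Spi1 (-0.02 to 1.0), Runx1 (-0.23 to 1.49), C1qa (-0.18 to 0.77) and Cd53 (-0.50 to 0.29). Markers with under 10 counts in a library have the widest counting error; Runx1 and Itgb2 were not called, while Itgam and Lyz2, also under 10 counts in GFP libraries, were called in GemC1 against GFP.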
